A study of Danio rerio with 15 samples.

Results

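The genes examined here encode RagA, the folliculin complex and the core of mTORC1 in zebrafish. The 9 genes chosen by name were rraga, flcn, fnip1, depdc5, tsc2, mtor, rptor, mlst8 and eif4ebp1. Rows with these names were found for 8 of them, and flcn was not analysed here. The 8 genes stand among 24609 genes with a count in the tables, and all 8 were among the 19006 genes that passed the filter on low counts and were tested.

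RNA from zebrafish larvae of the TL strain, 4 days after fertilization, was sequenced in 15 libraries, 3 in each of 5 groups. The groups were uninjected rraga mutants, zymosan A-injected larvae mutant in all of tfeb, tfe3a and tfe3b (triple mutants), uninjected triple mutants, zymosan A-injected wild type and uninjected wild type. All larvae were raised in water that held methylene blue and PTU, an inhibitor of pigment synthesis. The injected larvae served to ask how far Tfeb and Tfe3 switch on lysosomal genes under inflammatory challenge, and the rraga mutants were a group for comparison. Zymosan A, made from the cell wall of yeast, is engulfed by phagocytes. No mock-injected group was included, so zymosan and the injection itself cannot be told apart. The rraga mutants were picked by scoring under the confocal microscope, and whether larvae were pooled, which lesion each line carries and how many clutches were used are not given in the sources used here. Each group has 3 libraries named biological replicates. The p-values set a difference against the spread between such replicates, estimated in a fit over all 15 libraries.

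RagA is a small GTPase that, bound to RagC or RagD and anchored to the lysosome by the Ragulator complex, brings mTORC1 to the lysosomal surface when amino acids are plentiful. GATOR1, of which Depdc5 is a subunit, turns RagA off, whereas folliculin with its partner Fnip1 acts on RagC and RagD and thereby lets mTORC1 phosphorylate Tfeb and Tfe3, which keeps these transcription factors out of the nucleus. In zebrafish, loss of rraga is known to disturb the microglia, the macrophages of the brain, whose lysosomes digest what they engulf.

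Library totals ran from 12314113 to 17566540 counts, and mitochondrial genes took 7.99% to 14.01% of them. Among the 15 pairs of replicates, chi-square per degree of freedom ran from 3.86 to 24.76, and the highest values belonged to pairs with replicate 3 of zymosan-injected wild type. Of the targeted genes, tfe3b fell in uninjected triple mutants, at 0.138, 0.111 and 0.0751 CPM (counts scaled to library size after TMM normalization), against 1.15 to 2.09 CPM in wild type, with log2 fold change -3.84 ± 0.87 (SE) and adjusted p = 0.00455 in edgeR's quasi-likelihood test. Transcript of tfeb (0.01 ± 0.20) and tfe3a (-0.42 ± 0.38) did not pass in the same comparison. Injected triple mutants had 0.0 to 0.859 CPM of tfe3b, against 2.18 to 3.22 CPM in injected wild type (-3.17 ± 0.74, edgeR adjusted p = 0.00556). The highest of these triple-mutant values lay within the range of rraga mutants, 0.503 to 1.72 CPM. As the lesions are not given, transcript levels of tfeb, tfe3a and rraga do not check the labels.

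In units that allow genes to be set side by side, the FPKM values deposited by the authors (scaled to transcript length and library size), the translation repressor gene eif4ebp1 was the most abundant of the 8 in uninjected wild type at 11.4 ± 0.609 FPKM (SD, n = 3), in the table that also holds the rraga mutants. The order then ran through tsc2 at 8.74 ± 0.631, rraga at 7.19 ± 1.36, depdc5 at 6.45 ± 0.359 and fnip1 at 5.87 ± 0.713 FPKM. The kinase gene mtor stood at 3.21 ± 0.284 FPKM, and the genes for its partners were lower still, mlst8 at 1.12 ± 0.35 and rptor at 0.211 ± 0.0816 FPKM. In rraga mutants of the same table the order was another one, with rraga first at 12.7 ± 0.453 FPKM, fnip1 next at 9.98 ± 0.114 FPKM and eif4ebp1 in the fifth place at 4.99 ± 1.1 FPKM. In the triple mutants mlst8 was last, at 0.0284 ± 0.0197 FPKM with zymosan and 0.021 ± 0.0258 FPKM without. All further levels are CPM, which compares a gene across libraries but not with another gene.

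**Figure D1:**
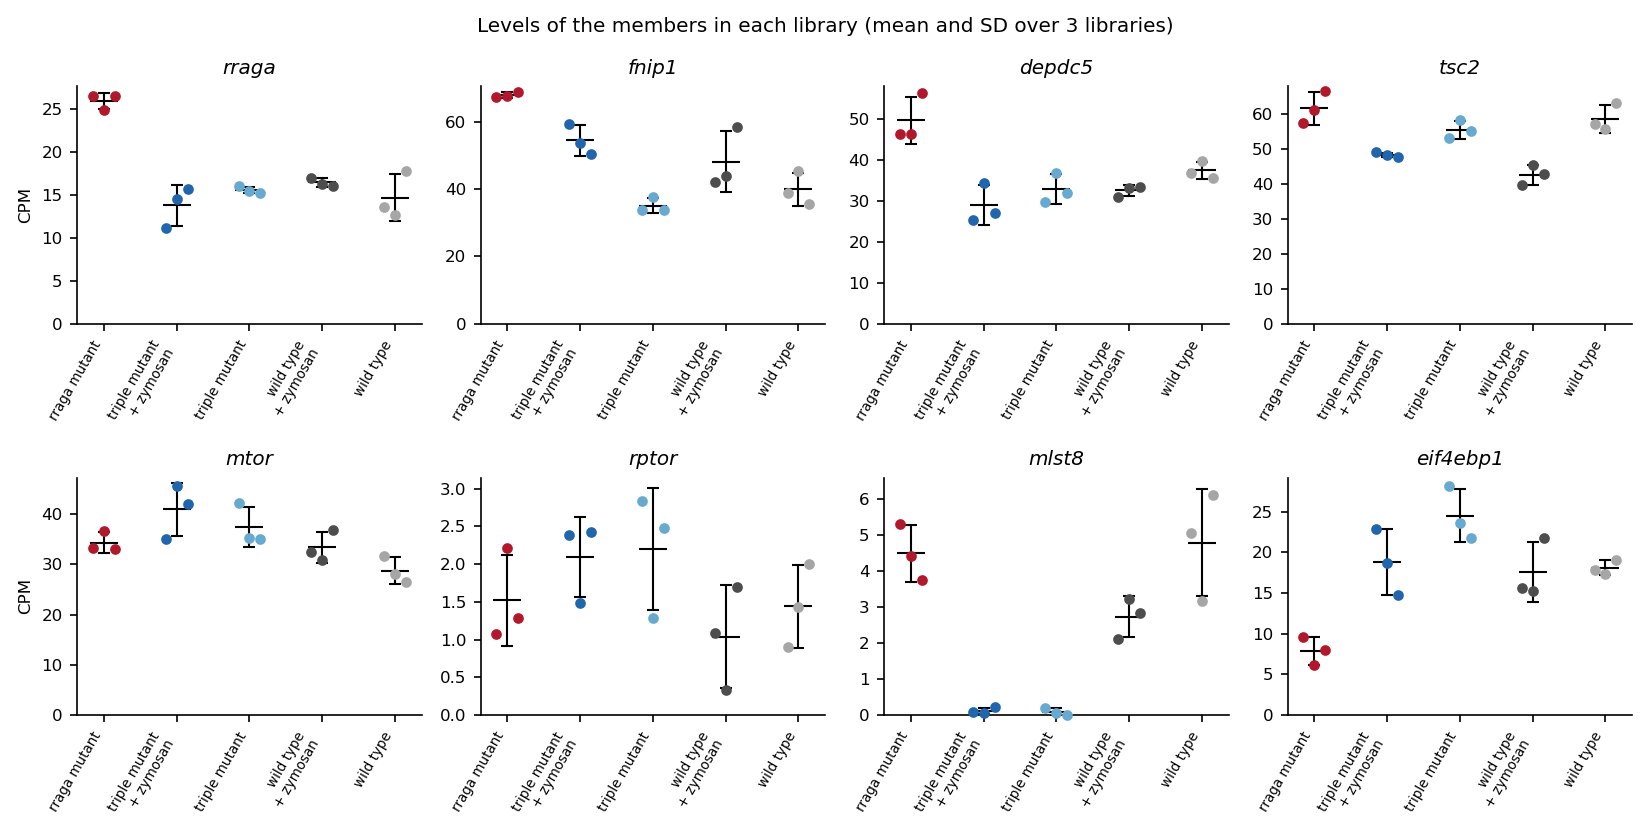
Level of each of the 8 measured genes (CPM, vertical axes starting at 0 and differing between panels) in each library, with the mean and SD of the 3 libraries of a group. The rraga mutants stand above the other groups for rraga, fnip1 and depdc5 and below them for eif4ebp1, and both triple-mutant groups lie near 0 for mlst8.

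The first comparison set uninjected rraga mutants against uninjected wild type. In the mutants rraga itself, fnip1 and depdc5 were higher, and eif4ebp1 was lower. Of the 8 genes, 3 rose and 1 fell, which is 50.0% of them, and in the same comparison 14.0% of all tested genes passed an adjusted p of 0.05. The 8 genes include the mutated rraga and were chosen with earlier results of these data known. This share and those in later comparisons are therefore descriptions. The median log2 fold change was 0.17 over the 8 genes and 0.00 over all tested genes.

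The gene rraga (ENSDARG00000104149, GRCz11 chromosome 14, 14027427 to 14094406), which is the locus mutated in this group, had 26.6, 24.9 and 26.5 CPM in rraga mutants, against 13.6, 12.7 and 17.8 CPM in wild type. The groups did not overlap, and the lowest mutant library stood above the highest of wild type. In counts, the mutants held 372, 339 and 369 reads and the wild type 212, 168 and 204. Transcript of rraga thus rose in the mutants, with log2 fold change 0.83 ± 0.14 (edgeR quasi-likelihood test, adjusted p = 0.000338), or 1.78-fold. In the other groups rraga averaged 13.8 ± 2.38 CPM in injected triple mutants, 15.6 ± 0.368 CPM in uninjected triple mutants and 16.5 ± 0.514 CPM in injected wild type, and the 3 rraga mutant libraries exceeded all 12 others. Within 0.5 Mb of rraga, 4 other genes were tested, of which 2 fell and none rose in the rraga mutants. Over all 19006 tested genes, 1219 fell and 1440 rose in this comparison. None of the 4 changed over 4-fold, beside 1.8% of all tested genes.

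Transcript of fnip1 (ENSDARG00000102171, chromosome 21, 45510448 to 45553237), for a partner of folliculin, stood at 67.3, 67.6 and 68.9 CPM in rraga mutants and at 38.8, 45.3 and 35.7 CPM in wild type. The mutant libraries lay close together and well above those of wild type. The rise was 1.70-fold, with log2 fold change 0.77 ± 0.12 (edgeR quasi-likelihood test, adjusted p = 0.000114).

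The GATOR1 subunit gene depdc5 (ENSDARG00000078105, chromosome 10, 17171604 to 17222083) had 46.3, 46.3 and 56.4 CPM in rraga mutants, against 36.8, 39.7 and 35.6 CPM in wild type. The groups did not overlap, with replicate 3 of the mutants the highest. The rise was 1.33-fold, with log2 fold change 0.41 ± 0.12 (edgeR quasi-likelihood test, adjusted p = 0.0273). It rested on few libraries: adjusted p was 0.121 without replicate 3 of the mutants, 0.0841 without replicate 1 of wild type and 0.102 without its replicate 3.

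Levels of eif4ebp1 (ENSDARG00000043608, chromosome 21, 21013147 to 21020708) were 9.59, 6.11 and 8.04 CPM in rraga mutants and 17.8, 17.3 and 19.1 CPM in wild type. The gene encodes 4E-BP1, which blocks cap-dependent translation until mTORC1 phosphorylates it. Each mutant library was below each library of the other 4 groups, whose lowest value was 14.7 CPM. The fall was 2.28-fold, with log2 fold change -1.19 ± 0.19 (edgeR quasi-likelihood test, adjusted p = 0.000123). Although eif4ebp1 and fnip1 share chromosome 21, they lie far apart on it and moved in opposite directions.

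The other 4 genes did not pass in rraga mutants. The gene for the mTOR kinase (mtor, ENSDARG00000053196, chromosome 8, 46077609 to 46321918) had 33.3, 36.7 and 33.0 CPM in rraga mutants and 31.7, 28.1 and 26.5 CPM in wild type. These groups did not overlap, yet the log2 fold change of 0.25 had a 95% interval of 0.01 to 0.50 and an adjusted p of 0.18 by edgeR. The tuberin gene tsc2 (ENSDARG00000103125, chromosome 1, 54198893 to 54274861), whose product restrains mTORC1 through Rheb, had overlapping libraries in the 2 groups, and its difference was 0.07 (95% interval -0.12 to 0.26). For mlst8 (-0.09, interval -0.83 to 0.65) and rptor (0.09, interval -0.96 to 1.14), which encode subunits of mTORC1, low counts left wide intervals.

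**Figure D2:**
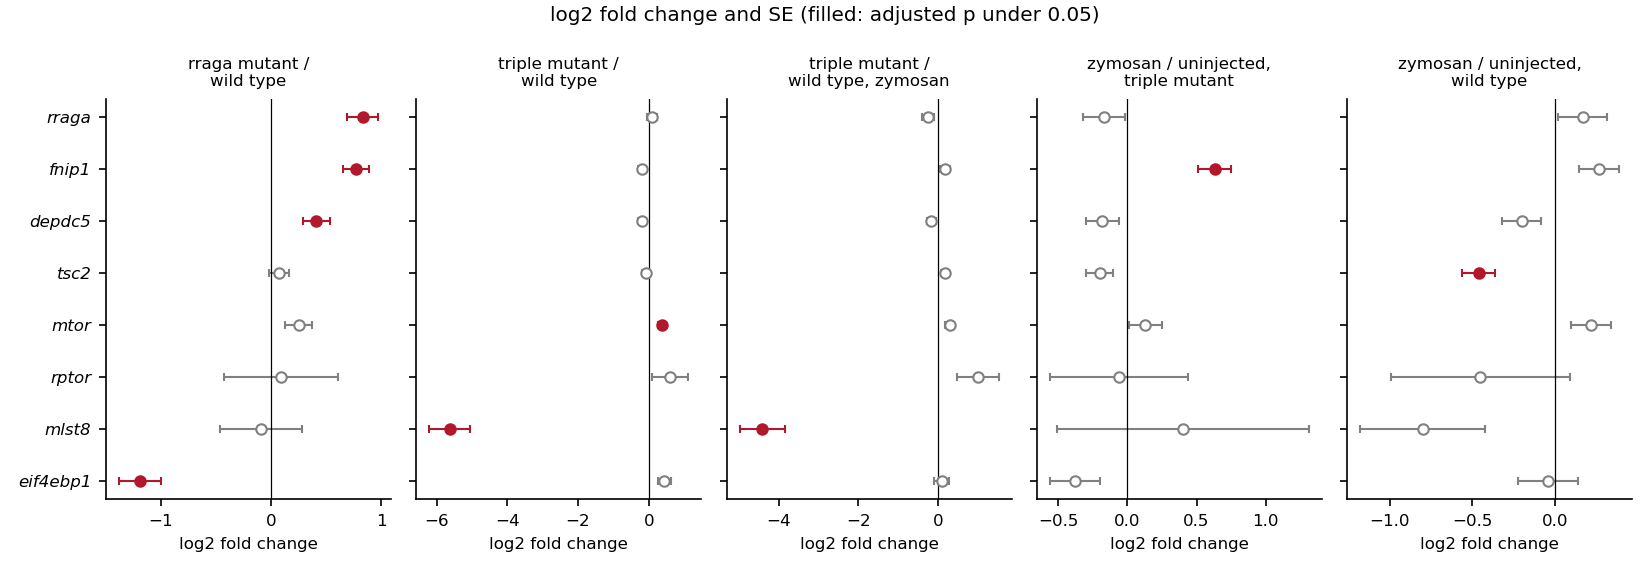
log2 fold change and SE of the 8 genes in 5 comparisons (horizontal axes differ between panels), with filled points for an adjusted p under 0.05. The rraga mutants show 4 filled points, from -1.19 for eif4ebp1 to 0.83 for rraga, whereas the largest difference in both triple-mutant comparisons is that of mlst8.

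Set against uninjected triple mutants, which carry a different set of mutations, the rraga mutants differed in 5 of the 8 genes, 4 higher and 1 lower, or 62.5%, beside 25.4% of all tested genes. The values for fnip1 were 67.3, 67.6 and 68.9 CPM in rraga mutants, against 33.7, 37.7 and 33.9 CPM in triple mutants (log2 fold change 0.95 ± 0.12, edgeR adjusted p = 3.67e-06). The values for eif4ebp1 were 9.59, 6.11 and 8.04 CPM in rraga mutants, against 28.1, 23.6 and 21.8 CPM in triple mutants (-1.63 ± 0.19, edgeR adjusted p = 8.45e-07). Neither gene had overlapping groups, and depdc5 (0.60 ± 0.12, edgeR adjusted p = 0.000929) and rraga (0.74 ± 0.14, edgeR adjusted p = 0.000489) were also higher in rraga mutants. The remaining gene was mlst8 (5.54 ± 0.58), with almost no reads in triple mutants. The comparison with wild type uses the same rraga mutant libraries, so these sets of values are not independent.

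In triple mutants without zymosan, the gene that stood apart was mlst8, for the small beta-propeller subunit that both mTOR complexes contain. Of the 8 genes 1 rose (mtor) and 1 fell (mlst8), which is 25.0%, beside 9.77% of all tested genes. The median log2 fold change was 0.00 over the 8 genes and over all tested genes alike. This comparison shares its wild-type libraries with that of the rraga mutants.

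Reads of mlst8 (ENSDARG00000003167, chromosome 12, 18542954 to 18571563) numbered 3, 1 and 0 in uninjected triple mutants and 79, 42 and 70 in uninjected wild type. In levels, this was 0.207, 0.0557 and 0 CPM in triple mutants, against 5.06, 3.17 and 6.10 CPM in wild type. Every triple-mutant library was far below every library of wild type. The wild-type level was 54.1 times that of triple mutants, with a 95% interval of 20.8 to 201.0 that covers counting error only. The fitted log2 fold change was -5.63 ± 0.58 (edgeR quasi-likelihood test, adjusted p = 2.74e-07).

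The injected groups showed the same contrast in other libraries, with 1, 1 and 3 reads of mlst8 in triple mutants and 27, 49 and 45 in wild type. Wild type stood at 23.2 times the triple-mutant level (95% counting interval 9.69 to 72.9), and the fitted log2 fold change was -4.42 ± 0.57 (edgeR quasi-likelihood test, adjusted p = 7.68e-06). The rraga mutants, at 74, 60 and 52 reads, stayed in the range of uninjected wild type. Of the 8 genes, mlst8 alone passed with zymosan, which is 12.5%, beside 11.9% of all tested genes.

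The position of mlst8 was then examined. It lies on chromosome 12, which carries none of tfeb (chromosome 11), tfe3a (chromosome 8), tfe3b (chromosome 11) and rraga (chromosome 14). Its span overlaps bricd5, pgp and zdhhc4 on the opposite strand, and the strand setting of the counting is unknown, so reads of overlapping genes cannot be told apart. These 3 genes were near 0 in triple mutants as well: pgp, a phosphatase gene, had 1 read in the injected and 2 in the uninjected triple mutants, against 369 in injected and 239 in uninjected wild type and 371 in rraga mutants. For zdhhc4, a palmitoyltransferase gene, both triple-mutant groups had 0 reads, against 138 in injected and 167 in uninjected wild type.

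Neighbours that do not overlap mlst8 were low too. The nearest tested ones were neurl2, for which uninjected triple mutants held 1 read and wild type 142, and grid2ipb, with 6 reads in triple mutants and 120 in wild type. Of 20 tested neighbours within 0.5 Mb, 9 were over 4-fold lower in uninjected triple mutants, which is 45.0%, compared with 2.83% of all tested genes over 4-fold changed in either direction. With zymosan it was 10 of 20, or 50.0%, compared with 2.89% of all tested genes. All of these also passed the test as lower. Around the other 7 genes, the number of neighbours within the same distance that were over 4-fold lower in uninjected triple mutants was 0 for rraga, fnip1, mtor, eif4ebp1, tsc2 and depdc5 and 1 of 5 for rptor.

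An unbroken run of 9 tested genes around mlst8, delimited after the values were seen, extends from atpaf2 to grid2ipb (chromosome 12, 18410608 to 18656238, 245.6 kb). Together these genes held 30 reads in injected and 26 in uninjected triple mutants, against 1335 in injected and 1304 in uninjected wild type and 1646 in rraga mutants. All 9 fell in triple mutants with and without zymosan, and 0 of the 9 passed in rraga mutants against wild type, where log2 fold changes ran from -0.37 to 0.85. At the edges of the run, tom1l2 (1.89, or -1.01 with zymosan) and rgs9b (-1.28, or -2.07 with zymosan) had smaller log2 fold changes, and only rgs9b with zymosan passed. A second set of low genes, also picked out after the values were seen, lies about 0.9 Mb away. It holds usp42, eif2ak1, dlgap5 and ccz1, with pms2 among them not passing (-0.80, or -1.46 with zymosan). Reads of pms2 were few, at 5 in uninjected triple mutants and 8 in uninjected wild type. With zymosan they were 7 in triple mutants and 21 in wild type. In rraga mutants, pms2 held 51 reads and passed as higher than in uninjected wild type (log2 fold change 2.64). Between the sets lies fam20cb, which also fell (-4.15, or -2.43 with zymosan). The other tested genes between the sets did not pass in either triple-mutant comparison. Among them were trrap (0.38, or 0.39 with zymosan), tecpr1a (0.25, or 0.35 with zymosan) and pvalb2 (-0.85, or 0.48 with zymosan). For dlgap5 the triple mutants had 1 read with zymosan and 0 without, against 284 in injected and 334 in uninjected wild type. For mlst8 and its neighbours, the genotype of the 3 transcription factor genes cannot be told apart from other differences of the triple mutants. Every triple-mutant library carries the 3 mutations together, and the number of clutches is not given.

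**Figure D3:**
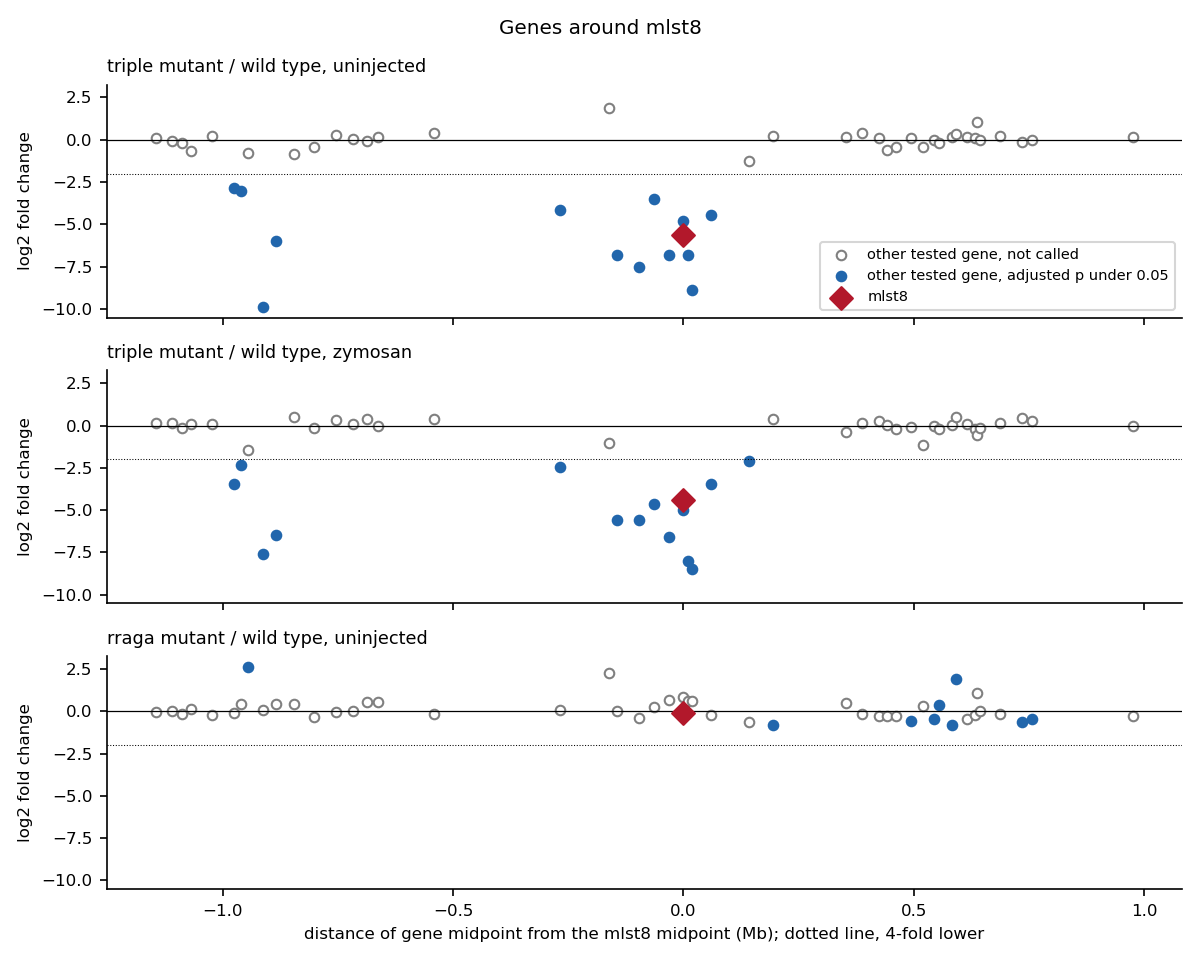
log2 fold change of mlst8 and of the tested genes around it, by distance of each gene's midpoint from that of mlst8 (Mb), in 3 comparisons. Low genes cluster around mlst8 and again about 0.9 Mb to its left in both triple-mutant comparisons. In rraga mutants mlst8 lies at -0.09 and the unbroken run of 9 genes that holds it from -0.37 to 0.85. Beside that run, tom1l2 lies at 2.24 in rraga mutants without passing. Among the genes about 0.9 Mb to the left, pms2 lies at 2.64 in rraga mutants and passes.

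The kinase gene mtor had 42.1, 35.3 and 35.1 CPM in uninjected triple mutants and 31.7, 28.1 and 26.5 CPM in uninjected wild type. The groups did not overlap. The rise was 1.3-fold, with log2 fold change 0.38 ± 0.12 and an adjusted p of 0.0478 in edgeR's quasi-likelihood test. That p lies close to the threshold and was 0.0600 to 0.2 when any one of the 3 triple-mutant libraries or replicate 2 or 3 of wild type was left out. With zymosan, the groups overlapped and the difference of 0.29 ± 0.12 did not pass (edgeR adjusted p = 0.124). The span of mtor holds angptl7 on the opposite strand, which had 528 reads in uninjected triple mutants and 712 in wild type. Of the 8 genes mtor is the only one that shares a chromosome with a mutated locus of the triple mutants, at 38.27 Mb from tfe3a.

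The other 6 genes did not pass in either triple-mutant comparison. Transcript of eif4ebp1 reached 28.1, 23.6 and 21.8 CPM in uninjected triple mutants, above the 17.8, 17.3 and 19.1 CPM of wild type, without passing (0.44 ± 0.18, edgeR adjusted p = 0.131). With zymosan its libraries overlapped (0.09 ± 0.18). For rraga the difference was 0.09 (95% interval -0.20 to 0.38) without and -0.25 (-0.55 to 0.04) with zymosan. For fnip1 it was -0.19 (-0.43 to 0.06) without and 0.18 (-0.06 to 0.42) with zymosan, and for depdc5 -0.19 (-0.43 to 0.06) and -0.17 (-0.42 to 0.08). For tsc2 it was -0.08 (-0.27 to 0.11) without and 0.18 (-0.01 to 0.37) with zymosan, where its libraries lay apart. Transcript of rptor, for the Raptor subunit that selects the substrates of mTORC1, had only 97 reads in all in uninjected triple mutants and 56 in wild type, and its difference of 0.61 had an interval from -0.42 to 1.64. With zymosan it held 88 reads in triple mutants and 46 in wild type, and its difference was 1.00 (-0.04 to 2.05).

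Zymosan in triple mutants raised 1 of the 8 genes, fnip1, which is 12.5%, beside 12.8% of all tested genes. Levels of fnip1 were 59.5, 53.6 and 50.5 CPM in injected triple mutants, against 33.7, 37.7 and 33.9 CPM in uninjected ones. The groups did not overlap, and the rise was 1.55-fold (log2 fold change 0.63 ± 0.12, edgeR quasi-likelihood test, adjusted p = 0.000829). For eif4ebp1 the values were 22.9, 18.7 and 14.7 CPM in injected and 28.1, 23.6 and 21.8 CPM in uninjected triple mutants (-0.38 ± 0.18, edgeR adjusted p = 0.168). Those of mlst8 stayed near 0 in both groups.

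Zymosan in wild type lowered 1 of the 8 genes, tsc2, again 12.5%, beside 9.9% of all tested genes. Levels of tsc2 were 39.8, 45.5 and 42.8 CPM in injected wild type, against 57.2, 55.8 and 63.4 CPM in uninjected wild type. The groups lay apart, and the fall was 1.38-fold (log2 fold change -0.46 ± 0.10, edgeR quasi-likelihood test, adjusted p = 0.0025). A gene without an established name (CABZ01067150.1) overlaps the start of tsc2 on the same strand and had 70 reads in injected and 88 in uninjected wild type. In triple mutants tsc2 had 49.1, 48.5 and 47.7 CPM with zymosan and 53.2, 58.4 and 55.1 CPM without, groups that also lay apart, but the difference did not pass (-0.20 ± 0.10, edgeR adjusted p = 0.192). In wild type fnip1 had 42.0, 44.0 and 58.6 CPM with zymosan and 38.8, 45.3 and 35.7 CPM without, where replicate 3 of the injected group stood above the rest (0.27 ± 0.12, edgeR adjusted p = 0.184). Reads of mlst8 summed to 121 in injected and 191 in uninjected wild type (-0.80 ± 0.38, edgeR adjusted p = 0.213).

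Whether zymosan acted differently in the 2 genotypes was tested as an interaction, which none of the 8 genes passed in edgeR (0 of 8, beside 0.142% of all tested genes, or 27 genes), and 1 of the 8 had an unadjusted p under 0.05. With DESeq2, 50 genes passed among all those tested and again 0 of the 8. That 1 gene was fnip1, whose rise with zymosan was larger in triple mutants by 0.36 ± 0.17 on the log2 scale (edgeR adjusted p = 0.85). For tsc2 the difference between the zymosan effects was 0.26 ± 0.14 (edgeR adjusted p = 0.913). The passing of fnip1 in triple mutants and of tsc2 in wild type is therefore not shown to be particular to a genotype.

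Ordered over the 5 groups, fnip1 ran from 68.0 ± 0.85 CPM in rraga mutants through 54.5 ± 4.61 in injected triple mutants, 48.2 ± 9.06 in injected wild type and 40.0 ± 4.9 in uninjected wild type to 35.1 ± 2.27 CPM in uninjected triple mutants. Only its first step, between rraga mutants and injected triple mutants, exceeded the sum of the neighbours' SDs. For depdc5 the rraga mutants at 49.6 ± 5.81 CPM stood beyond the next group, uninjected wild type at 37.4 ± 2.12 CPM, and the other steps down to 28.9 ± 4.88 CPM in injected triple mutants were within the spread. For eif4ebp1 the one step beyond the spread was that between injected wild type at 17.6 ± 3.72 CPM and rraga mutants at 7.91 ± 1.74 CPM. For tsc2 the uninjected groups could not be separated, at 61.8 ± 4.76 CPM in rraga mutants, 55.6 ± 2.65 CPM in triple mutants and 58.8 ± 4.04 CPM in wild type. Both injected groups lay below them, triple mutants at 48.4 ± 0.657 CPM and wild type at 42.7 ± 2.88 CPM. The step between the injected groups also exceeded the sum of their SDs, although the difference did not pass (0.18 ± 0.10, edgeR adjusted p = 0.258). No step between neighbouring groups exceeded the spread for mtor or rptor.

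The other genes of the pathway were taken from a list of 66 that covers Rag, Ragulator, GATOR1 and GATOR2, the amino acid sensors, the TSC complex, both mTOR complexes, upstream kinases and mTORC1 substrates. Rows were found for 51, and 50 were tested. In rraga mutants 4 of the 50 rose and 2 fell, which is 12%, against the 14.0% of all tested genes, and their median log2 fold change was 0.19. The gene for the mTOR inhibitor Deptor was among those that rose, at 23.3, 23.0 and 26.9 CPM in rraga mutants and 16.9, 13.3 and 15.2 CPM in wild type (deptor, 0.68 ± 0.13, edgeR adjusted p = 0.000764). The others that rose were lamtor5 of the Ragulator (1.20 ± 0.30), the 4E-BP gene eif4ebp3l (0.42 ± 0.11) and lpin1, for a phosphatidate phosphatase that mTORC1 phosphorylates (0.66 ± 0.18). The kinase gene akt3b (-0.46 ± 0.11) and the sestrin gene sesn3 (-0.36 ± 0.11) fell. The gene eif4ebp3l lies on chromosome 14, 7.04 Mb from rraga.

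The 4E-BP genes differed in direction in rraga mutants. While eif4ebp1 fell, eif4ebp3l had 62.7, 64.5 and 48.5 CPM in rraga mutants, against 42.6, 45.1 and 43.2 CPM in wild type, without overlap. Transcript of eif4ebp2 had 329.0, 336.0 and 338.0 CPM in rraga mutants, against 302.0, 294.0 and 313.0 CPM in wild type, and its log2 fold change of 0.14 did not pass. Nor did that of eif4ebp3 (-0.18, edgeR adjusted p = 0.508).

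In uninjected triple mutants 3 of the 50 rose and 2 fell (10%, median 0.06), beside 9.77% of all tested genes. Of the genes for RagC, the partner of RagA, rragca rose, at 16.1, 14.4 and 12.7 CPM in triple mutants and 7.12, 7.99 and 5.57 CPM in wild type (1.06 ± 0.19, edgeR adjusted p = 0.00047), while rragcb did not pass (0.10, edgeR adjusted p = 0.902). Transcript of deptor (0.73 ± 0.13) and lpin1 (0.57 ± 0.18) rose too, and the Ragulator gene lamtor4 fell, at 9.88, 9.92 and 9.99 CPM in triple mutants and 16.2, 15 and 16.2 CPM in wild type (-0.67 ± 0.15, edgeR adjusted p = 0.00539). The largest fall was in prr5a, for a subunit of mTORC2, with 3, 3 and 1 reads in triple mutants and 46, 42 and 43 in wild type (-4.35 ± 0.68, edgeR adjusted p = 9.96e-05). With zymosan the estimated fall in prr5a was smaller, with 38 reads in triple mutants and 154 in wild type (-1.99 ± 0.54, edgeR adjusted p = 0.016). The interaction of prr5a did not pass (2.36 ± 0.89, edgeR adjusted p = 0.674), so a difference between the 2 falls is not shown. Within triple mutants prr5a passed as higher with zymosan (2.48 ± 0.74, edgeR adjusted p = 0.0271). Its libraries overlapped there, at 0.0716 to 1.62 CPM with and 0.0751 to 0.207 CPM without zymosan.

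With zymosan, 6 of the 50 were higher and 4 lower in triple mutants than in wild type (20.0%, median 0.03), beside 11.9% of all tested genes. Again deptor was higher, at 44.2, 49.2 and 40.4 CPM in triple mutants and 21.8, 19.3 and 23.2 CPM in wild type (1.06 ± 0.12, edgeR adjusted p = 1.78e-06). The genes lpin1 (0.90 ± 0.17) and mapkap1 (1.32 ± 0.27), the second for an mTORC2 subunit, were higher, and lamtor4 (-0.64 ± 0.15) was lower. Of the GATOR1 subunit gene nprl2, triple mutants held 10, 7 and 7 reads and wild type 50, 38 and 29 (-2.24 ± 0.53, edgeR adjusted p = 0.00584). The gene bmt2, for a sensor of S-adenosylmethionine, had 0 reads in injected triple mutants and 49 in injected wild type, which is at least 15.7-fold lower if 3 counts in the group are taken as the floor. Without zymosan, bmt2 had 5 reads in triple mutants and 24 in wild type and did not pass (-2.34 ± 1.04, edgeR adjusted p = 0.185). Both prr5a (21075227 to 21092222) and bmt2 (21770962 to 21782435) lie on chromosome 25, where neither rraga nor a gene mutated in the triple mutants lies. Neighbours within 0.5 Mb were low in uninjected triple mutants, over 4-fold for 7 of 14 around prr5a and 8 of 16 around bmt2, compared with 2.83% of all tested genes. With zymosan it was 8 of 14 around prr5a and 11 of 16 around bmt2, compared with 2.89% of all tested genes. These windows overlap, so the counts are not independent.

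Zymosan raised 8 of the 50 in triple mutants and 5 in wild type, and lowered none in either (16% and 10%, medians 0.07 and 0.08). Over all tested genes the shares were 12.8% in triple mutants and 9.9% in wild type. In both genotypes the gene with the smallest adjusted p was sesn1, for a sestrin that restrains mTORC1 through GATOR2. It had 167.0, 143.0 and 165.0 CPM in injected and 77.3, 74.8 and 63.1 CPM in uninjected triple mutants (1.14 ± 0.10, edgeR adjusted p = 1.63e-08). In wild type it had 154.0, 137.0 and 159.0 CPM with zymosan and 67.5, 72.7 and 65.2 CPM without (1.13 ± 0.10, edgeR adjusted p = 3.1e-08). Both genotypes were also higher with zymosan in eif4ebp3l (1.24 ± 0.11 in triple mutants and 0.84 ± 0.11 in wild type), the autophagy kinase gene ulk1a (0.97 ± 0.19 and 1.11 ± 0.19) and deptor (0.83 ± 0.12 and 0.50 ± 0.13). The genes lpin1 (0.85 ± 0.17) and tbc1d7 of the TSC complex (0.68 ± 0.17) passed in triple mutants, and the kinase gene pdpk1a (0.86 ± 0.19) in wild type. None of the 50 passed the interaction in edgeR, where 4 had an unadjusted p under 0.05, or in DESeq2.

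Between rraga mutants and uninjected triple mutants, 7 of the 50 were higher and 4 lower (22%, median 0.09), beside 25.4% of all tested genes. Higher in rraga mutants were eif4ebp3l (0.75 ± 0.11), eif4ebp2 (0.39 ± 0.09), prr5a (3.53 ± 0.70) and Ragulator genes. The latter were lamtor4 (0.88 ± 0.15), lamtor1 (0.80 ± 0.23), lamtor2 (0.73 ± 0.19) and lamtor3 (0.61 ± 0.20), while lamtor5 did not pass (0.55 ± 0.29). Among those lower were akt3b (-0.52 ± 0.11) and rragca (-0.78 ± 0.19).

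Whole larvae hold many cell types, and in such bulk samples fewer cells of a type and less RNA per cell cannot be told apart. In rraga mutants against wild type, 5 of 5 photoreceptor markers were lower, with summed levels of 6620 to 7220 CPM in mutants and 10100 to 12800 CPM in wild type. Of the neuron markers 2 of 4 were lower (sums 1100 to 1180 and 1270 to 1350 CPM), and 1 of 6 tested microglia and macrophage markers was higher (428 to 453 and 247 to 265 CPM). Among hepatocyte markers, 2 of 5 were higher and 1 lower, of 3 neutrophil markers 2 were higher, and 1 muscle marker was higher. Of 4 lens markers 1 was higher, although their summed level was lower (1710 to 2070 and 2110 to 2590 CPM). No marker was at 0 in either group. Against uninjected triple mutants, 4 of 4 neuron markers were lower in rraga mutants (sums 1100 to 1180 and 1430 to 1560 CPM) and 3 of 6 microglia markers higher (428 to 453 and 169 to 204 CPM). There, 1 photoreceptor marker was higher and 2 lower, 2 hepatocyte markers were higher and 1 lower, and 2 neutrophil markers were higher. The part of these markers in the differences of rraga, fnip1, depdc5 and eif4ebp1 was not tested.

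In uninjected triple mutants against wild type, 1 photoreceptor marker was higher and 2 lower (sums 6990 to 9190 and 10100 to 12800 CPM), and 1 of 6 microglia markers was lower (169 to 204 and 247 to 265 CPM). Of the lens markers 1 was higher and 1 lower, and 1 of 3 muscle markers was lower. Under zymosan the photoreceptor sum was 2370 to 2720 CPM in triple mutants and 5320 to 8500 CPM in wild type, and 4 of 5 markers were lower, while 1 hepatocyte marker was higher, 1 lens marker higher and 1 lower, and 1 muscle marker lower. Zymosan itself went with lower photoreceptor markers in triple mutants (4 of 5) and in wild type (3 of 5), and 1 hepatocyte and 1 microglia marker were higher in either genotype and 1 lens marker in wild type. The interaction was passed by 3 of the 5 photoreceptor markers, beside 0.142% of all tested genes. For these markers the zymosan effect was more negative in triple mutants than in wild type. Of 3 tested neutrophil markers, 2 were lower with zymosan in either genotype. Neurons, with sums of 1380 to 1420 and 1430 to 1560 CPM in injected and uninjected triple mutants and 1300 to 1340 and 1270 to 1350 CPM in injected and uninjected wild type, had 0 of 4 markers past the test in any of these comparisons. The part of the markers in the changes of fnip1, tsc2 and mtor was not tested.

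For each of the genes that passed in a comparison, 3 tested genes with a similar profile over the 15 libraries were looked up. They were those with the highest Pearson's r of log2 CPM among genes with an established symbol, as a description. Genes without such a symbol were skipped by the form of their names. Any symbol that held a full stop or colon, or began with si, im or wu, was skipped with them. A closer profile among the skipped genes would not be listed. The libraries fall into genotype and treatment groups that all these genes share. The profile of rraga was closest to those of bri3 (r = 0.923), bloc1s6 (0.915), for a subunit of a complex in lysosome-related organelle formation, and map2k4b (0.914). That of fnip1 was closest to prodha (0.931), pla2g15 (0.923), for a lysosomal phospholipase, and aifm4 (0.922). Mean levels of pla2g15 were 67.5 CPM in rraga mutants, 52.5 and 36.7 CPM in injected and uninjected triple mutants and 50.8 and 45.4 CPM in injected and uninjected wild type.

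Among the genes not skipped, those closest to mlst8 were tbc1d15 (0.982, chromosome 18), grm2b (0.979, chromosome 11) and tor2a (0.978, chromosome 5). None of them lies on the chromosome of mlst8, and grm2b shares chromosome 11 with the mutated tfeb and tfe3b. In both triple-mutant groups tor2a averaged 0 CPM, against 2.68 CPM in injected and 4.09 CPM in uninjected wild type. Closest to eif4ebp1 were ttyh3b (0.924), mccc1 (0.921), for a subunit of an enzyme of leucine breakdown, and rgmb (0.921). For depdc5 they were ythdf2 (0.942), cyfip2 (0.92) and plekhm2 (0.912), for tsc2 ccdc93 (0.937), sptb (0.932) and prkdc (0.923), and for mtor srfbp1 (0.836), hmox2a (0.828) and dopey2 (0.826).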

How the data were processed

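RNA-seq libraries of zebrafish larvae were grouped by the genotype and treatment in the labels. The authors deposited 3 tables of 6 libraries each with raw counts, a signal (counts over a per-library size factor) and FPKM values. Per the submitters' processing notes, HISAT2 2.0.5, StringTie 1.3.3b, featureCounts 1.5.0 and GRCz11 were used, and no strand setting is given. The deposited FPKM served only to order genes within a table, and the deposited signal was not used. The tables, which list genes with at least 2 counts in total, were joined by gene identifier, and absent genes were set to 0.

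Counts were fitted in R 4.3.3 with edgeR 4.0.16 (filterByExpr, TMM factors 0.85 to 1.187, quasi-likelihood, a mean per group over 15 libraries, common biological coefficient of variation 0.165), which was tested on simulated data. All 7 contrasts were adjusted by Benjamini-Hochberg over the 19006 genes tested, and SEs come from the F statistic. The 95% intervals of log2 fold changes are approximate, as they were taken as a fixed multiple of these SEs. A gene is said to rise or fall at an adjusted p under 0.05. Alternatives were DESeq2 1.42.0, RLE scaling, no filter, only the groups compared, a replicate block, no mitochondrial genes and leaving out each library. Of the pathway list, at least the 6 passing genes with the smallest adjusted p per contrast are named, or all where fewer passed. Members and lists were chosen with earlier results of these data known. Intervals and floors computed from counts cover counting error alone.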

Additional observations from a re-analysis of the deposited data

How the results depend on the processing

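Under the alternatives tried, no log2 fold change of the 8 genes that had passed changed sign. Without replicates in turn, the number of the 8 genes passing in uninjected triple mutants against wild type ran from 1 to 2, against 2 with all libraries, and it was 1 with the replicate number as a block. The gene lost in each case was mtor (adjusted p 0.0694 with the block, 0.0332 to 0.2 over all alternatives). In their deviations from group means, same-numbered libraries correlated between -0.101 and 0.074 over 30 pairs, with 0 over 0.1. With 3 libraries per group, such correlations cannot decide whether the replicate numbers pair the samples. Under zymosan the number of the 8 ran from 1 to 2, as fnip1 passed without replicate 3 of injected wild type (0.34, adjusted p = 0.0404). With only the groups compared in the fit, eif4ebp1 also passed in uninjected triple mutants (0.44, adjusted p = 0.0287). Leaving out single libraries, the other pathway genes passing ran from 6 to 13 under zymosan in triple mutants against wild type (6 without replicate 2 of injected triple mutants or replicate 1 of injected wild type), from 5 to 8 for zymosan in triple mutants (5 without replicate 1 of the uninjected) and from 3 to 6 in rraga mutants (3 without replicate 1). These ranges are not set beside those of all tested genes in the same fits. They therefore do not show that the pathway genes depend on single libraries more than other genes do. For the interaction over all genes, 27 passed, but 50 with DESeq2, 77 without the filter and 16 to 50 without single libraries (50 without replicate 3 of injected wild type). The causes were not tested. Counts of rptor and mlst8 limit the precision of their differences.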
